A study of Mus musculus with 8 samples.

Results

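The receptors for the transmitters glutamate, GABA, glycine and acetylcholine were examined in the soft tissue of the mouse cochlea. The members were the genes of ionotropic and metabotropic glutamate receptors, GABA-A and GABA-B receptors, glycine receptors and nicotinic acetylcholine receptors. They were chosen by gene symbol, without Chrna9 and Chrna10, among probe sets that the platform annotation gives to 1 gene alone. The rule found 57 genes with 114 probe sets, of 18193 genes and 34945 probe sets in all. Some genes of these families were not analysed here.

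Total RNA was measured on Affymetrix Mouse Genome 430 2.0 arrays in 8 CBA/CaJ mice, an inbred strain with good hearing, with the ears of a mouse pooled on 1 array. Every mouse received urethane (300 mg/kg) and was perfused through the heart with saline, and the tissue held the spiral ligament, the organ of Corti and the modiolus, the core that holds the auditory neurons. All 8 mice form 1 group of normal cochlea, so the data hold no contrast between treatments. The labels give no genotype beyond the strain, no age and no sex. In such a mixed tissue, fewer cells of a type and less RNA per cell cannot be told apart.

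At the first synapse of hearing, the inner hair cell releases glutamate onto the ending of a spiral ganglion neuron, where AMPA receptors carry the fast signal. Efferent fibres from the brainstem end in the cochlea and use acetylcholine and GABA, among other transmitters. Ionotropic receptors are ion channels built from several subunits, whereas the metabotropic glutamate receptors and the GABA-B receptor act through G proteins. RNA of a receptor lies mostly in the cell body, so subunits of the auditory neuron are read here from the ganglion in the modiolus.

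The sequences upstream of Grm7 and Gria4 are shown because these receptor genes had the steepest slopes, among those above background on all arrays, on an index of neuronal genes, given with the values by mouse. Both are the 250 bases before the gene's start, from RefSeq (GRCm38.p6), written along the gene's own strand. Grm7 lies at chr6:110645262-110645511 on the plus strand, where 62% of the bases were G or C. The table held 2 starts for Grm7, of which the first is shown. Gria4 lies at chr9:4796235-4796484 on the minus strand, with 58.8% G or C. The median of all promoters in the table was 52.4%. Capitals mark a match to a motif searched on both strands.
Grm7: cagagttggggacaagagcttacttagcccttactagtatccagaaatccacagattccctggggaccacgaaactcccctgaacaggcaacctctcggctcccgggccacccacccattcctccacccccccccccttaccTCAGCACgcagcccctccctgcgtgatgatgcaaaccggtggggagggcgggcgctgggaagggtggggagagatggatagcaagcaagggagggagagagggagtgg
Gria4: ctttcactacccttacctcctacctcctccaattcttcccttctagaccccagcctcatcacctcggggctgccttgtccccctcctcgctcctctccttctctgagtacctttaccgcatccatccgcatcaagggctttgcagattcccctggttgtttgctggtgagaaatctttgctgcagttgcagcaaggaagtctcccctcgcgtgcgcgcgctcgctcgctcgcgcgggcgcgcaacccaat
The motifs were TCAGCAC and GGACAG, parts of the element bound by REST, a repressor of neuronal genes outside neurons, and the cyclic AMP response element TGACGTCA. TCAGCAC occurred once upstream of Grm7 and was found in 4.23% of the 32851 promoters of the table. GGACAG occurred in 18.7% and TGACGTCA in 1.55% of them, and neither was found in these 2 windows. TCAGCAC was not found in the Gria4 window. The table held promoters of 42 of the 57 receptor genes and none of Gria3.

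A signal was called above background when it exceeded a background level, the 95th percentile of 163 probe sets for olfactory or vomeronasal receptors and for genes that mark other organs. This threshold ranged from 70.5 to 89.5 over the arrays. All values are MAS5 signals in arbitrary units, and they rank mice within a probe set, not RNA amounts between probe sets. Log2 signals of any pair of arrays correlated at 0.945 to 0.960 (Pearson's r over probe sets, and these do not count as replicates). Of all genes above background on every array, 34.6% were highest and 24.4% lowest in mouse 1. In mouse 6, 9.10% were highest and 12.4% lowest. Spiral ganglion neuron genes were mostly above background, with 21 of 24 on all 8 arrays, beside 60.0% of all genes. Central glia genes, such as those of oligodendrocytes, were high in mice 1 and 6, where their summed signal was 4148 and 4552, against 487 to 967 in the other mice.

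Few receptor genes were above background throughout. Of the 57 genes, 8 (14.0%) exceeded the threshold on all 8 arrays, 12 on some arrays and 37 on none. Among all genes 60.0% exceeded it on all 8 arrays. The 8 genes were Gria3, Gria4, Grm7, Gabbr1, Glrb, Glra3, Chrnb1 and Chrna4. With the mean of all probe sets of a gene the count was 4, without Gria4, Grm7, Glra3 and Chrna4, and the share of all genes 50.8%. With the 99th percentile as threshold it was 5, without Gria4, Grm7 and Chrna4, beside 49% of all genes. With the sensory receptor probe sets alone as background it was 12, with Gria2, Grin2d, Grin3b and Grm4 added, beside 64.9%.

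**Figure D1:**
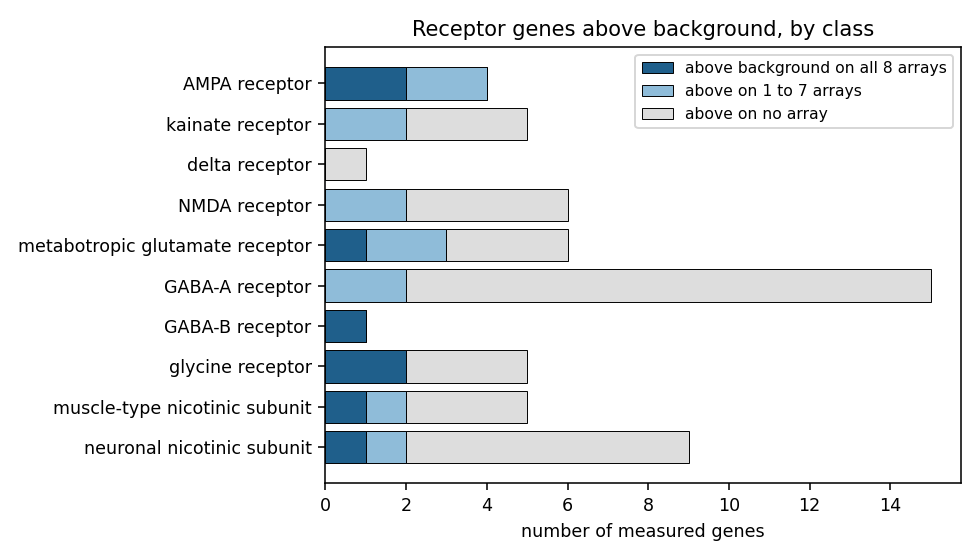
Number of measured receptor genes (horizontal axis) in each class, split into genes above background on all 8 arrays (dark), on 1 to 7 arrays (light blue) and on no array (grey). All 4 AMPA receptor genes were above background on at least 1 array, whereas 13 of the 15 GABA-A receptor genes were above it on none.

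**Figure D2:**
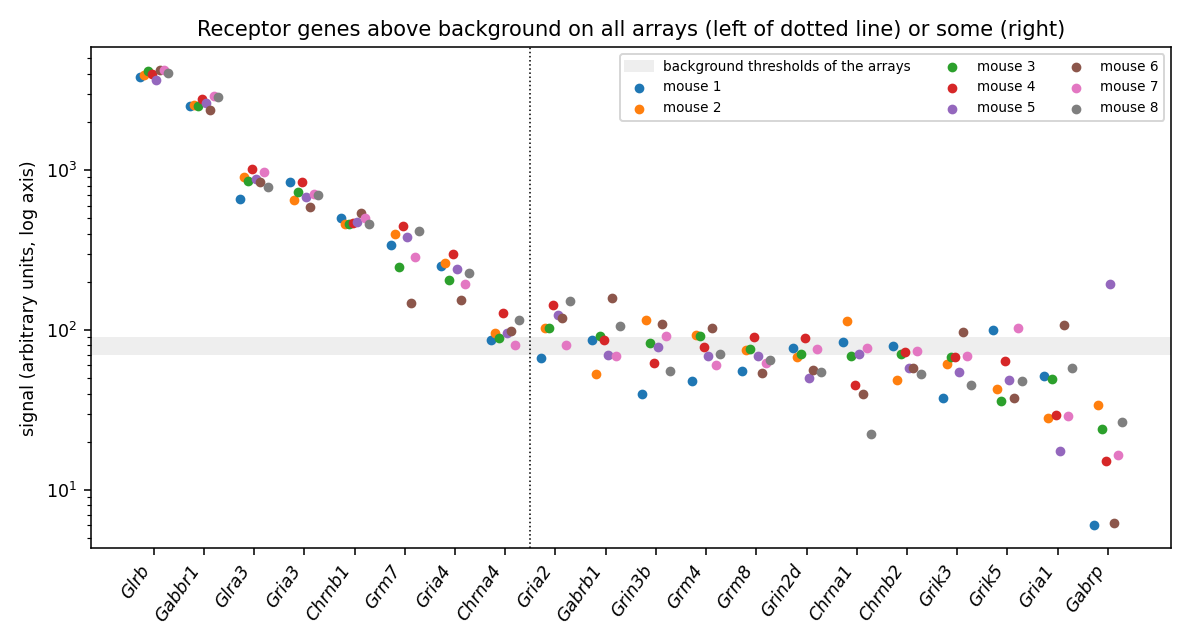
Signal (arbitrary units, log axis) of the 20 receptor genes above background on at least 1 array, with 1 point per mouse and the range of the background thresholds in grey. The 8 genes left of the dotted line were above background on every array, and Chrna4 lay closest to it. Heights compare mice within a gene, not genes with each other.

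AMPA receptors were the class with the most genes above background on any array: Gria3 and Gria4 on all 8 arrays, Gria2 on 7 and Gria1 on 1. Gria3, the GluA3 subunit, measured 844, 654, 726, 840, 679, 588, 712 and 701 in mice 1 to 8. Mice 1 and 4 were highest and mouse 6 lowest. Gria4, the GluA4 subunit, measured 252, 261, 206, 300.1, 242, 155, 194 and 228. Mouse 4 was highest and mouse 6 lowest, and all other probe sets of both genes stayed below the thresholds. The 2 other probe sets of Gria4 had mean signals of at most 37.6, and the other one of Gria3 61.5, so the levels rest on 1 probe set for each gene.

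Gria2 encodes GluA2, the subunit that makes AMPA receptors nearly impermeable to calcium. Its brightest probe set measured 66.9, 102, 102, 143, 124, 119, 80.0 and 152 in mice 1 to 8 and was below the threshold in mouse 1. The second measured 96.2, 97.6, 88.6, 144, 79.4, 43.0, 87.5 and 97.0, and the dimmest 75.6, 81.2, 78.0, 105, 92.9, 54.7, 79.9 and 67.8. Mouse 6 was the lowest mouse by the second and the dimmest probe sets but not by the brightest, where it was above the median of 111. The order of the mice differed with the probe set read. Gria1, the GluA1 subunit, was above background in mouse 6 alone, at 107 against 17.6 to 58.0 in the others.

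**Figure D3:**
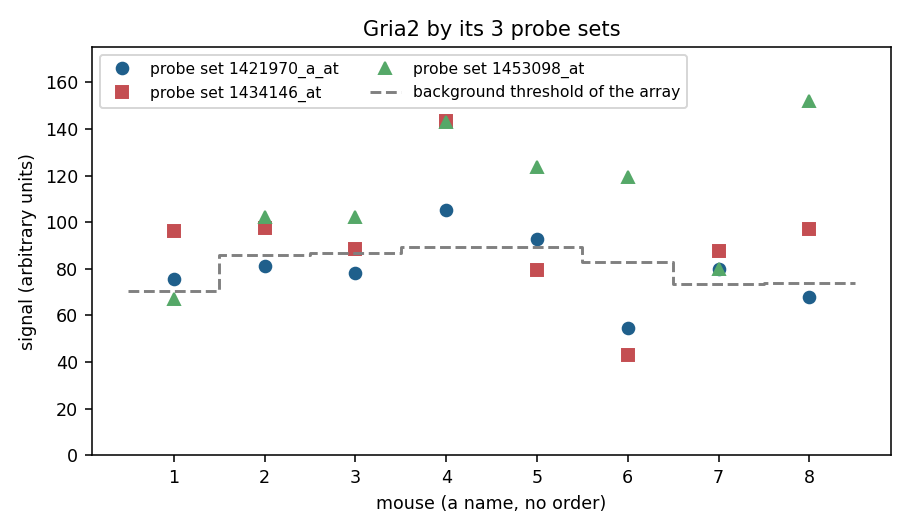
Signal of Gria2 (arbitrary units) by mouse for its 3 probe sets, with the background threshold of each array as a dashed line. In mouse 6 the brightest probe set (triangles) measured 119 whereas the second (squares) measured 43.0 and the dimmest (circles) 54.7.

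Kainate, NMDA and delta receptor genes were above background on few arrays or none. Kainate receptors are glutamate-gated channels that also tune transmitter release. Of their 5 genes, Grik5 exceeded the threshold in 2 mice, at 100.2 in mouse 1 and 103 in mouse 7 against 35.8 to 63.7 in the others, and Grik3 in mouse 6 alone, at 96.8 against 37.4 to 69.1. Grik1, Grik2 and Grik4 stayed below it with mean signals of 35.6 to 53.4. Grin1, the subunit that every NMDA receptor needs, was not analysed here. Of the 6 NMDA receptor genes measured, 2 were above background on 3 arrays each. These were Grin3b (79.4 ± 26.2, SD, n = 8) and Grin2d (67.7 ± 13.3). Grin2a, Grin2b, Grin2c and Grin3a were above it on no array, with means of 4.10 to 49.9, and so was the delta receptor gene Grid1 (27.5).

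Grm7 was the metabotropic glutamate receptor gene above background on all arrays and the most variable of the 8 receptor genes that were. It encodes mGlu7, a presynaptic receptor that lowers transmitter release. Its signals were 338, 396, 249, 448, 384, 147, 286 and 416 in mice 1 to 8. Mouse 6 was lowest, at 0.384 of the median of the others, and mouse 3 next. Its log2 SD was 0.53, against a median of 0.18 over the 8 receptor genes and 0.18 over all genes above background on every array. The 2 other probe sets of Grm7 were above background on no array. Grm4 exceeded the threshold on 3 arrays (76.6 ± 18.5, SD, n = 8) and Grm8, a presynaptic receptor related to mGlu7, on 1 (68.2 ± 12.1), whereas Grm2, Grm3 and Grm5 did so on none, with means of 11.5 to 43.3.

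Genes of inhibitory receptors divided sharply, with the GABA-B receptor and glycine receptor beta subunit genes well above background and nearly all GABA-A receptor genes below it. Gabbr1, the GABA-binding subunit of the GABA-B receptor, measured 2506, 2558, 2501, 2777, 2638, 2360, 2916 and 2866 in mice 1 to 8. Its mice lay within 1.24-fold of each other. A second probe set of Gabbr1 was above background on all arrays too, at 1159 to 1789, but did not follow the first over the mice (r = 0.07, exact permutation p = 0.880, two-sided, adjusted 0.944). Read by the first probe set mouse 6 was lowest, and by the second mouse 1 was lowest.

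Glrb encodes the beta subunit that anchors the glycine receptor at the synapse through gephyrin. It measured 3803, 3938, 4155, 3988, 3677, 4204, 4217 and 4033 in mice 1 to 8. It was the steadiest of the 8 genes, with a log2 SD of 0.07. Its second probe set, of the kind that can bind related transcripts, fell to 2818 in mouse 1 and 1648 in mouse 5 and was 5149 to 6146 in the others. Mouse 5 was lowest and mouse 1 next by both probe sets, although the ranges differed widely. They correlated at r = 0.84 over the 8 mice (exact permutation p = 0.0111, two-sided, adjusted 0.0825). Agreement passed at an adjusted exact p under 0.05 for 8.47% of the 4487 genes with a pair of probe sets above background, and for 0 of the 2 receptor genes that had such a pair. At an unadjusted p under 0.05 it passed for 1 of the 2 and for 27.5% of the 4487.

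The glycine-binding alpha subunits were low apart from 1 probe set of Glra3. Glra3 measured 663, 900, 852, 1018, 881, 837, 974 and 783, with mouse 1 lowest and mouse 4 highest. Its other probe set was below every threshold, at 1.30 to 23.4, so the probe sets of this gene disagreed on whether it was above background. Glra1, Glra2 and Glra4 were above background on no array, with means of 2.78 to 13.1.

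Of 15 GABA-A receptor genes, 13 were above background on no array, as were 5464 of all 18193 genes. They encode the chloride channels that GABA opens, here the subunits Gabra2 to Gabra6, Gabrb2, Gabrd, Gabre, Gabrg1, Gabrg3, Gabrq, Gabrr1 and Gabrr2, with means of 3.23 to 45.4. Gabrb1, a beta subunit, was above it in 4 mice. It measured 86.3, 53.0, 91.1, 86.4, 69.9, 158, 69.2 and 105 in mice 1 to 8. Mouse 6 was highest, at 1.83 times the median of the others. A second probe set of Gabrb1 did not show this, at 84.5 in mouse 6 and 54.7 to 94.1 in the others, with mouse 1 highest.

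Gabrp, the pi subunit, known from epithelia outside the nervous system, was above background in mouse 5 alone. Its signals were 6.0, 33.8, 23.9, 15.2, 195, 6.20, 16.6 and 26.6 in mice 1 to 8. A second probe set gave 2.0, 14.1, 12.8, 17.1, 129, 11.7, 26.2 and 20.5. By both, mouse 5 lay above every other mouse and the others were below the thresholds. In a list of 15 airway epithelium genes, set up after the Gabrp values had been seen, 12 were highest in mouse 5. Of all genes above background on every array, 7.91% were highest in that mouse. The summed signal of the list was 24380 in mouse 5 against 2413 to 9020 in the other mice. Most of the sum in mouse 5 came from Bpifa1, a gene above background on all 8 arrays, at 18387 there and 1080 to 7395 in the others. Foxj1, the regulator of motile cilia, was 131 in mouse 5 and 3.30 to 19.5 elsewhere, and the secreted protein gene Reg3g was 715 and 2.10 to 23.9. The defining club cell gene Scgb1a1 was 12.5 in mouse 5 and 8.5 to 25.3 in the others. It was itself among the genes that set the background, so its place below the thresholds tests nothing. The part of airway epithelium in the Gabrp signal was not tested.

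Nicotinic receptor genes were above background for 1 of 5 subunits of the muscle type and 1 of 9 of the neuronal type. Chrnb1, the beta subunit of the muscle receptor, measured 504, 461, 460.4, 464, 471, 542, 499 and 461 in mice 1 to 8. Mouse 6 was highest and the whole range spanned 1.18-fold. Chrna1, the alpha subunit that binds acetylcholine in muscle, was above background in 3 mice, at 84.4 in mouse 1, 114 in mouse 2 and 77.7 in mouse 7, and measured 22.4 to 70.8 in the others. Chrnd, Chrne and Chrng stayed below it, with means of 2.70 to 27.3.

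Skeletal muscle genes set mouse 5 apart. Of 16 muscle genes 14 were highest in mouse 5, beside 7.91% of all genes above background on every array. Their summed signal was 17122 in mouse 5 against 1117 to 2697 elsewhere. The actin gene Acta1 was 822 in mouse 5 and 2.0 to 29.0 in the others, and the troponin gene Tnnt3 was 2654 and 2.50 to 191. In the same mouse Chrna1 was 70.8, Chrnb1 471 and Chrnd 3.5, all within the range of the other 7 mice. The muscle index could not be used as a scale, since mouse 5 stood apart on it and only 1 of its genes was above background on all arrays.

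**Figure D4:**
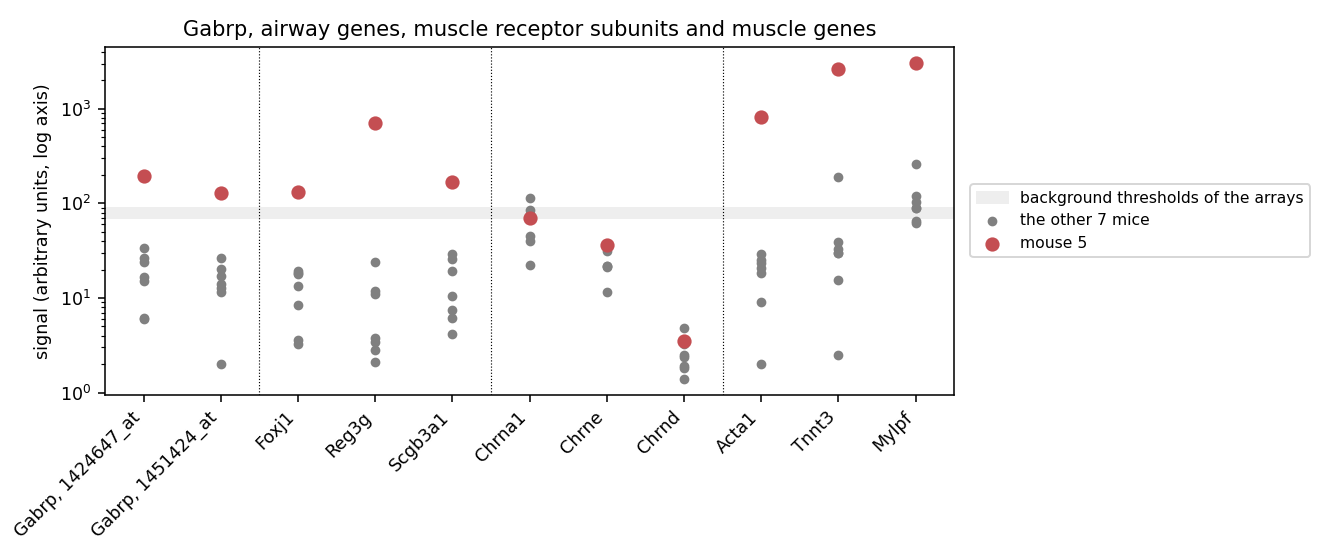
Signal (arbitrary units, log axis) of both Gabrp probe sets, of 3 airway epithelium genes, of 3 muscle-type nicotinic subunits and of 3 skeletal muscle genes, with mouse 5 in red, the other 7 mice in grey and the background thresholds as a band. Mouse 5 lay above all others for Gabrp (195 and 129), the airway genes and the muscle genes, but within their range for Chrna1 (70.8) and Chrnd (3.5).

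Among the neuronal nicotinic genes, Chrna4, the partner of Chrnb2 in the common receptor of the brain, barely exceeded the threshold. It measured 87.0, 95.2, 89.6, 128, 95.5, 98.7, 80.0 and 116 in mice 1 to 8, with mouse 4 highest. Its other probe sets exceeded the threshold on 4 arrays and on none. Chrnb2 exceeded it in mice 1 and 7, by a narrow margin (79.9 and 73.9 against thresholds of 70.5 and 73.5). Chrna2, Chrna3, Chrna5, Chrna6, Chrna7, Chrnb3 and Chrnb4 were above background on no array, with means of 3.35 to 55.5. The genes that mark autonomic neurons, which carry several of these subunits, were likewise low. Of 9 such genes 0 were above background on all arrays, beside 60.0% of all genes, and Npy was on 3.

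Whether a receptor gene rose and fell with neuronal genes over the mice was tested with an index. The index of a mouse is the mean log2 deviation of 21 spiral ganglion neuron genes, none of them receptors, and it was -0.82 in mouse 6 and -0.17 to 0.46 in the others. Grm7 rose with it, by 1.22 ± 0.23 (SE) on the log2 scale per log2 unit of the index (limma, adjusted p = 0.0373, n = 8). It was the 1 receptor gene of 8 that passed. Among all 10896 genes tested, 0.890% rose with the index at this threshold and 0.0184% fell. The genes of the index did not all move together. Of the 24 listed, 16 were lowest in mouse 6, beside 12.4% of all genes above background on every array. Map1b was highest there, at 2388 against 1728 to 2315 elsewhere, and Gata3 was 1964 in mouse 6 and lowest in mouse 4, at 1381.

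Gria4 missed the threshold and Gria3 lay further from it. The slope of Gria4 was 0.69 ± 0.14 (SE, limma, adjusted p = 0.0695) and that of Gria3 0.37 ± 0.13 (adjusted p = 0.377). Both were lowest in mouse 6, as was Grm7. At an unadjusted p under 0.05, these 3 of the 8 receptor genes passed, all rising. At that level 10.6% of all genes passed in either direction. With genes above background on at least 4 arrays, 1 receptor gene of 10 rose, again Grm7, beside 1.16% of 11753 genes; Gria2 had a slope of -0.25 ± 0.35 and Gabrb1 of -0.81 ± 0.31 (limma, adjusted p = 0.779 and 0.413). The slopes of the other 5 were small, from -0.13 ± 0.11 for Chrnb1 to 0.12 ± 0.12 for Gabbr1 (limma, adjusted p from 0.660 to 0.917). For Gabbr1 the direction depended on the probe set, with r = 0.45 by the first and -0.65 by the second, and the slope was -0.08 with the mean of all its probe sets.

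Over the 8 mice the correlation with the index was highest for Gria4. Its Pearson's r was 0.90 (exact permutation p = 0.00330, adjusted over 8 genes 0.0264) and Spearman's rho 0.90 (exact p = 0.00456, adjusted 0.0365). For Grm7 r was 0.88 (exact permutation p = 0.0105, adjusted 0.0363) and rho 0.69 (exact p = 0.0694, adjusted 0.185). For Gria3 r was 0.80 (exact permutation p = 0.0136, adjusted 0.0363) and rho 0.52 (exact p = 0.197, adjusted 0.393). These adjustments cover the 8 receptor genes alone. By limma p over all 10896 genes tested, Grm7 ranked 91, Gria4 122 and Gria3 515. Without mice 1 and 6, which lay farthest from the median of the index, r was 0.92 for Gria4, 0.91 for Grm7 and 0.36 for Gria3. The size of r for Gria3 rests on those mice, which lie at both ends of the index. Its slope was 0.45 without mouse 6 and 0.32 without mouse 1. For Gria2 r was 0.87 and 0.71 by its second and dimmest probe sets and -0.24 by the brightest. Glrb ran against the index, with r = -0.62 (exact permutation p = 0.0953, adjusted 0.191) and rho = -0.76 (exact p = 0.0368, adjusted 0.147). Without mice 1 and 6 its r was -0.46. By the brightest probe sets of genes above background on some arrays, r ran from -0.79 for Grik3 to 0.56 for Grik5. Grik3 was above background in mouse 6 alone.

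**Figure D5:**
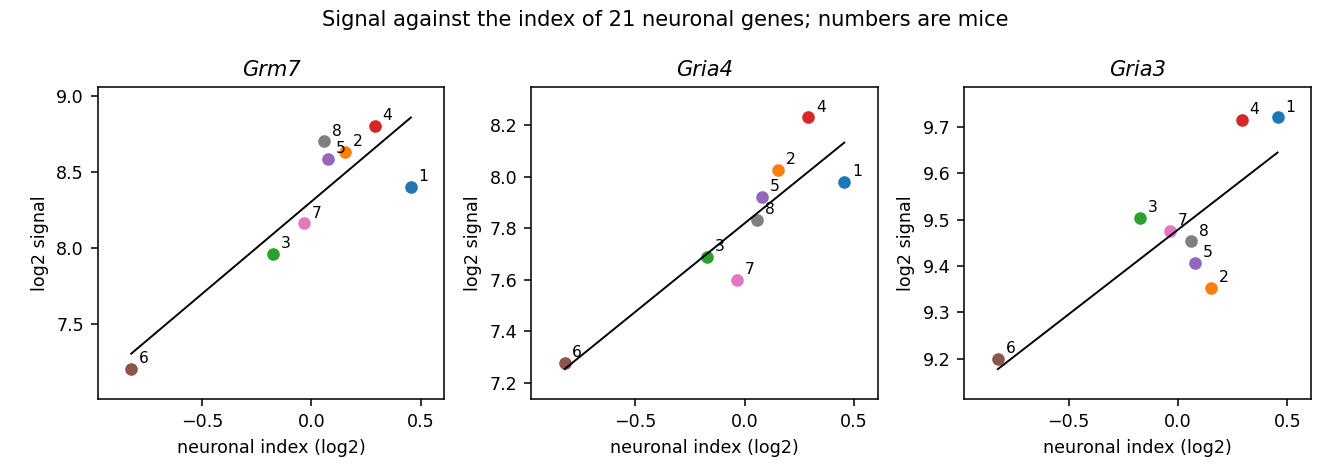
Log2 signal of Grm7, Gria4 and Gria3 (vertical axes) against the neuronal index (log2, horizontal axes), with 1 numbered point per mouse and the limma line. Mouse 6 lay lowest on both axes in each panel, with an index of -0.82, and without mice 1 and 6 r was 0.91 for Grm7, 0.92 for Gria4 and 0.36 for Gria3.

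The call of Grm7 depended on single mice. Its adjusted p was 0.329 without mouse 6, where the slope was 0.84, and 0.0839, 0.0804, 0.101, 0.0567 and 0.0726 without mouse 2, 3, 4, 5 and 7 (limma). It was 0.00203 without mouse 1 and 0.0397 without mouse 8. Gria4 passed without mouse 1 (adjusted p = 0.0473).

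Other measures moved with the index to some degree. The signal of Gapdh's 3′ control probe set over its 5′ one, a sign of RNA quality, was lowest in mouse 6 (1.39) and highest in mouse 1 (1.54) and correlated with the index at r = 0.71 (exact permutation p = 0.0373, adjusted over 4 relations 0.149). Spearman's rho was 0.57 (exact p = 0.151, adjusted 0.302), and without mice 1 and 6 r was 0.10. The part of RNA quality in the slopes was not tested. The central glia genes were high in mouse 6, the lowest on the index, and in mouse 1, the highest. By their brightest probe sets Gria1 and Gabrb1 were highest in mouse 6, while in mouse 1 they measured 51.2 and 86.3, within the range of the other mice. By a second probe set Gabrb1 was highest in mouse 1 (94.1), with mice 6 and 2 next (84.5 and 84.4). The other probe set of Gria1, above background on no array, was highest in mouse 6 (52.2), with mouse 1 next (32.1). The part of central tissue in these signals was not tested.

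With an index of 8 Schwann cell and myelin genes, 0 of the 8 receptor genes passed (limma), and 0 at an unadjusted p under 0.05. Of all 10909 genes 0% rose with it and 0% fell at an adjusted p under 0.05, and 7.12% passed unadjusted. This index spanned only -0.25 to 0.17. Its correlation with the neuronal index was r = 0.52 (exact permutation p = 0.197, adjusted 0.394) and rho = 0.74 (exact p = 0.0458, adjusted 0.183). Without mice 1 and 6, r between the indices was 0.94, so over the other mice they moved closely together.

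Both vesicular glutamate transporter genes above background rose with the neuronal index. The vesicular glutamate transporters, which load vesicles, had slopes of 1.59 ± 0.12 for Slc17a7 (limma, adjusted p = 0.000262) and 1.42 ± 0.16 for Slc17a6 (adjusted p = 0.00195). Slc17a7 measured 135 in mouse 6 and 249 to 515 elsewhere. They were the 2 of 8 transmitter supply genes tested that rose, and 0 fell, beside 0.890% and 0.0184% of all genes tested. The glial genes Glul and Slc1a3, which recycle and clear glutamate, had slopes of 0.06 ± 0.15 and 0.28 ± 0.16 (adjusted p = 0.881 and 0.522). The glycine transporter gene Slc6a9 had one of -0.05 ± 0.22 (adjusted p = 0.929). The GABA synthesis gene Gad1 was above background on 7 arrays (101 ± 16.7, SD, n = 8) and Gad2 on none, and the cholinergic genes Chat, Slc18a3 and Slc5a7 were on none.

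Of the partners of glutamate receptors, 16 of 31 were above background on all arrays, beside 60.0% of all genes. Of those 16, 1 rose with the index and 0 fell, beside 0.890% and 0.0184% of all genes tested. At an unadjusted p under 0.05, 2 rose and 1 fell, where 10.6% of all genes passed. The gene that rose was Nsf, an ATPase that binds AMPA receptors and takes apart SNARE complexes, with a slope of 0.66 ± 0.10 (limma, adjusted p = 0.0143). The scaffold genes Dlg3 (4426 ± 224, SD, n = 8), Dlg1 (2260 ± 204) and Dlg2 (1092 ± 189) did not pass (adjusted p = 0.861, 0.639 and 0.161), nor did Dlg4 (213 ± 55.4, adjusted p = 0.851), the most variable of them on the log2 scale. Cacng2, stargazin, which carries AMPA receptors to the synapse, was above background on 6 arrays and lowest in mouse 6, at 27.2 against 65.5 to 152. Neto2, another partner and above background on all arrays, was highest in mouse 6, at 146 against 81.3 to 139. Its slope was -0.44 ± 0.19 (limma, adjusted p = 0.462). Of the 31 partners 4 were lowest and 2 highest in mouse 6, beside 12.4% and 9.10% of all genes above background on every array.

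Of the partners of inhibitory receptors, 13 of 16 were above background on all arrays, beside 60.0% of all genes. With the index 0 of them rose or fell (limma), beside 0.890% and 0.0184% of all genes tested. At an unadjusted p under 0.05, 2 rose and 1 fell, where 10.6% of all genes passed. The GABA-A receptor partner Lhfpl4 had a slope of 0.83 ± 0.17 (adjusted p = 0.0695), its relative Lhfpl3 one of 1.31 ± 0.27 (adjusted p = 0.0695), and Gphn, gephyrin, measured 583 ± 51.8 (SD, n = 8). The trafficking genes Gabarap (7206 ± 716), Gabarapl1 (5800.4 ± 552) and Gabarapl2 (3458 ± 464) had the highest signals of the list. Of the partners of nicotinic receptors, 8 of 14 were above background on all arrays, beside 60.0% of all genes. With the index 0 of these 8 rose or fell, beside 0.890% and 0.0184% of all genes tested. At an unadjusted p under 0.05, 3 rose and 0 fell, where 10.6% of all genes passed in either direction. The 8 genes included Agrn (2919 ± 227), Lrp4 (816 ± 76.1) and the nicotinic receptor modulator Lynx1 (709 ± 183). Rapsn, which clusters the muscle receptor, was above background on 3 arrays and Musk on none.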

How the data were processed

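RNA of cochlear soft tissue was measured in 8 mice with 1 array each, all in 1 group. Per the submitters' processing notes MAS5 made the values, with no version stated there. The deposited columns hold linear intensity per probe set. On each array the mean intensity, trimmed by 2% at either end, was 500.0, so the deposited arrays share a scale. The signal over background and the number of arrays limit the precision. Platform annotation named genes, and 34741 probe sets were matched by Entrez identifier to current symbols, of which 0 changed.

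Each gene was taken from the probe set whose mean signal was highest (_x_at sets where there was no other), as log2 of the signal with values under 1 set to 1. Background was taken from 129 genes. The neuronal and Schwann cell indices were fitted by limma 3.58.1 (R 4.3.3) over all genes above background on all 8 arrays, index genes left out, with Benjamini-Hochberg adjustment and a threshold of 0.05. Correlations over 8 mice used all 40320 pairings, two-sided (Python 3.11.15). The limma fit was tested on simulated data. It called 90 of 100 genes with a slope of 1 on the neuronal index, 10 of 100 with 0.5 and 3 of 10696 with 0. Shallow slopes were thus mostly missed, and a gene that did not pass may still follow the index.

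The members and lists were chosen with earlier results of these data known. The rule named every receptor gene above background on any array, the others by class, and from each partner and cell type list the 3 genes of highest signal, the most variable one and those that passed the neuronal index test. Dlg2, Cacng2, Neto2, Lhfpl4, Gphn, Rapsn, Musk, Gad1, Gad2, Chat, Slc18a3, Slc5a7, Npy, Acta1, Tnnt3, Mylpf and the airway genes were named after their values were seen. Some genes of the cell type lists that the rule names are not printed. The design calls the arrays replicates from 8 mice, so p-values measure the spread between animals and assay together. Alternatives changed the scaling, the reading of a gene, the threshold, the filter, the index and the mice.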

Additional observations from a re-analysis of the deposited data

Results flagged for a closer look

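Gabrp lay apart in mouse 5 by both of its probe sets. The gap from mouse 5 to the next mouse was 0.853 of the whole range of the signals for the brighter probe set (195 against 6.0 to 33.8) and 0.809 for the other (129 against 2.0 to 26.2). Gria1 lay apart in mouse 6, with a gap of 0.548 of the range (107 against 17.6 to 58.0). The 28 probe sets examined were those above background on at least 1 array. Both Gabrp probe sets and that of Gria1 were among them only through the mouse in which they were high, so the gaps describe these values and test nothing. The critical value for 8 samples is 0.526, and each probe set was examined on the linear and on the log2 scale. Chance flags about 1 in 20 groups, and on the log2 scale 0 of the 28 were past the critical value.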

How the results depend on the processing

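The count of receptor genes above background on all arrays, 8, was 4 with the mean of all probe sets and 5 with the 99th percentile as threshold. Under the other alternatives it was 8 to 12, and without 1 mouse at a time 8 to 9. The count following the neuronal index, 1, was 0 with the mean of all probe sets (where Grm7 was not above background), 0 with no filter on low values, and 0 to 2 without 1 mouse at a time. The slope of Grm7 was positive under all 15 alternatives that gave a value, from 0.84 to 1.51 (limma, adjusted p from 0.00203 to 0.329), as was that of Gria4, from 0.61 to 0.79 (adjusted p from 0.0473 to 0.247). The number of genes that rose with the index fell from 97 to 7 without mouse 6. The counts for the Schwann cell index and for agreement of probe sets were 0 under every alternative run. The muscle index was not run, since mouse 5 stood apart on it. No paired analysis was possible because all mice form 1 group. Of the 8 genes, Chrna4 lay nearest the thresholds, so its place among them is the least certain.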

Other observations

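Among other cell types, the hair cell list had 6 of 10 genes above background on all arrays, the same share as over all genes (60.0%). The calcium buffer gene Pvalb, which neurons also express, rose with the neuronal index by 0.84 ± 0.14 (SE, limma, adjusted p = 0.0236) and was 3142 in mouse 6, its lowest value. Cabp2 (1357 ± 211, SD, n = 8) and Lhfpl5 (671 ± 69.7) did not pass (adjusted p = 0.648 and 0.799). Of genes known from cerebellar neurons 7 of 12 were above background on all arrays, close to that share, led by Zic2 (3663 ± 292) and Cbln1 (2433 ± 430), while Gabra6 and Grin2c, receptor genes of cerebellar granule cells, were above it on no array. Calb1 in that list rose with the index by 0.98 ± 0.18 (adjusted p = 0.0376). Of forebrain genes 1 of 7 was above background throughout.

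The central glia genes that set mice 1 and 6 apart included Mog, at 314.5 and 356 against 2.5 to 28.9 in the others, and Mobp, at 2331 and 2262. Gfap was 805 in mouse 1 and 1292 in mouse 6. Of 12 macrophage genes 11 were above background on all arrays, beside 60.0% of all genes, led by Lyz2 (3277 ± 897, SD, n = 8).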
